A study of Mus musculus with 6 samples.

Results

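The 10 genes described here are the core of Notch signaling as measured in this tumor: the 4 receptors Notch1, Notch2, Notch3 and Notch4, the ligands Dll1, Dll4, Jag1 and Jag2, and the target genes Hes1 and Hey1. They were chosen by symbol, and all 10 were found among the 34099 genes counted. The libraries came from 10x Genomics single-cell RNA sequencing of liver tumor tissue from 3 control mice and 3 mice exposed to chronic stress, with 1 library per mouse. All mice were wild-type male C57BL/6J animals carrying orthotopic tumors of H22, a mouse hepatocellular carcinoma line passaged as ascites before implantation in the liver, so every tumor came from 1 cell line. Control mice were housed under standard conditions and stress mice underwent chronic unpredictable mild stress. Each value below is the sum of UMIs (unique molecular identifiers, counts of captured RNA molecules) of a gene over the cells of 1 type in 1 mouse, given per 1000000 UMIs of those cells (CPM). Because 3′ UMI counts of different genes are not on a common scale, levels were compared for 1 gene across cells and mice, not between genes.

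Notch signaling works between touching cells. A ligand on 1 cell pulls on a receptor on its neighbor, the receptor is cut first by ADAM10 and then by the γ-secretase complex, and the freed intracellular part enters the nucleus, where it binds RBPJ and switches on genes such as those of the Hes and Hey families. In blood vessels Dll4 on the leading tip cell acts through Notch1 on the cells behind it to limit sprouting, Jag1 can oppose Dll4, and Notch4 is a receptor largely restricted to endothelium. Notch2 is known for its roles in myeloid cells, B cells and the bile ducts.

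The annotation held 58794 cells of 10 types, and 11433 of them were endothelial cells (ECs). All 7 EC markers examined, among them Pecam1, Cdh5 and the sinusoidal gene Stab2, were highest in ECs. Of the 8 cell types with a fixed marker list, 4 (ECs, NK/T cells, B cells and hepatic stellate cells) had every marker highest in the type of that name. Ly6c2 and Lyz2 of the 7 monocyte markers were highest in neutrophils, as were S100a8 and S100a9 of the 5 inflammatory myeloid markers. Of the 7 dendritic cell markers, Clec9a was highest in ECs and Siglech in B cells. The stellate cells also had the highest level of 2 tumor markers, Epcam (166 CPM, against 145 CPM in tumor cells) and Krt8 (300 CPM, against 5.66 CPM). M-MDSCs (monocytic myeloid-derived suppressor cells) went against their label in one respect. The 5 tumor markers summed to 547 to 859 CPM in M-MDSCs, next to 695 to 974 CPM in tumor cells. Median depth was 4538 UMIs per cell in ECs and 27716 in tumor cells. EC cluster 16 was the deepest of the 6 EC clusters tested, with a median of 14860 UMIs per cell. It held 5.47% to 15.7% of the ECs of a mouse but 17.4% to 40.3% of their UMIs. In that cluster the EC markers summed to 1642 CPM, compared with 10310 CPM in cluster 2, and the tumor markers to 564 CPM, compared with 31.1 CPM. EC cluster 15 was shallow, with a median of 1212 UMIs. Values of ECs are therefore given by cluster as well. Hepatic stellate cells (128 cells), neutrophils (175 cells) and EC cluster 27 (73 cells) had fewer than 10 cells in at least 1 mouse and were not tested. Libraries shared 13 to 40 cell barcodes per pair. The matrix headers named Cell Ranger 9.0.0 for all control libraries and 7.1.0 for all stress libraries, so an effect of the software version cannot be told apart from one of stress.

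Notch1, Notch4 and Dll4 were the 3 genes whose EC level exceeded that of every other cell type in all 6 mice, without overlap of the ranges of mean ± SD. Their RefSeq promoter windows, the 250 bases before the annotated start in GRCm38.p6, are shown for that reason. Capitals mark GGAA or its reverse complement TTCC, the core of the sites bound by ETS factors, which are known regulators of endothelial genes. The Dll4 window is chr2:119325534-119325783 on the plus strand, the Notch4 window chr17:34564045-34564294 on the plus strand, and the Notch1 window chr2:26503823-26504072 on the minus strand, within the gene span given for Notch1 by GENCODE M21.
Dll4: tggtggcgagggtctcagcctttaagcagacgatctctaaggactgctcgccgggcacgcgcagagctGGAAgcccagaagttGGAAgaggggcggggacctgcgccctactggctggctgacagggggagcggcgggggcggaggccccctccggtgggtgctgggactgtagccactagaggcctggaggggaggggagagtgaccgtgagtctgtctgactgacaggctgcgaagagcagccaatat
Notch4: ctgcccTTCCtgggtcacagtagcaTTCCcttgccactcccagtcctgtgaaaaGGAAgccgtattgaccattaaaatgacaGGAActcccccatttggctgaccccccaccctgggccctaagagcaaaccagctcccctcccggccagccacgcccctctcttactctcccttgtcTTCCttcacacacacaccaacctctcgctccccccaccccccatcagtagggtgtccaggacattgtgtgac
Notch1: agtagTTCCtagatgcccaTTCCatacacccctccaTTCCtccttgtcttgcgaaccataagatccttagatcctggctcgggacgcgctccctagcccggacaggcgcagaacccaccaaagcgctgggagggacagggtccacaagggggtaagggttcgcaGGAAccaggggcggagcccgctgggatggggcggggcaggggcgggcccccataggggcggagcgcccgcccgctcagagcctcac
The Notch4 window held 5 matches to the ETS core, the Notch1 window 4 and the Dll4 window 2. At least 1 match on either strand was found in 93.4% of all promoters of this length, so a match does not set these genes apart. The letters TGGGAA or TTCCCA, the core bound by RBPJ, were in none of the 3 windows and in 21.6% of all promoters.

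Notch1 and Notch4 were highest in ECs, Notch2 in myeloid cells and Notch3 in stellate cells. Notch1 (ENSMUSG00000026923, chr2:26457903-26516663, GRCm38) averaged 207 ± 17.1 CPM in ECs (SD, n = 6 mice) and 32.8 ± 9.92 CPM in NK/T cells, the next type in order. From NK/T cells down through monocytes (31.2 CPM), neutrophils (31.0 CPM), inflammatory myeloid cells (21.1 CPM) and stellate cells (19.3 CPM), each neighbor in the order overlapped the next within its SD. Tumor cells were lowest, at 1.90 ± 0.691 CPM. Notch4 (ENSMUSG00000015468, chr17:34564268-34588503) averaged 24.3 ± 7.06 CPM in ECs, and every other type averaged 3.40 CPM or less. Both receptors were highest in the vessels, and Notch1 was also detected at a lower level in lymphoid and myeloid cells.

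Notch2 (ENSMUSG00000027878, chr3:98013527-98150361) had a different distribution. It was highest in inflammatory myeloid cells (209 ± 79.1 CPM), monocytes (175 ± 32.7 CPM) and neutrophils (151 ± 73.0 CPM), which overlapped one another. Dendritic cells (DCs) followed at 80.2 ± 10.5 CPM, and ECs were the lowest type at 23.3 ± 3.34 CPM. As a mean over cells, Notch2 was 253 CPM in inflammatory myeloid cells, 204 CPM in monocytes, 185 CPM in neutrophils and 161 CPM in DCs, which brought DCs closer to the other myeloid types, and 12.7 CPM in ECs. Tumor cells held an even 36.6 to 40.2 CPM in the 6 mice. Notch3 (ENSMUSG00000038146), a receptor of pericytes and smooth muscle, was highest in stellate cells at 15.6 ± 13.6 CPM, from 32 UMIs in all, and the other types averaged 1.70 CPM or less.

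Of the ligands, Dll4 (ENSMUSG00000027314, chr2:119325784-119335962) was the most restricted to ECs. Its EC level was 61.1 ± 22.9 CPM, followed by 4.15 ± 6.08 CPM in B cells, which rested on 20 UMIs, and 2.08 CPM or less in the other types. Dll1 (ENSMUSG00000014773) averaged 8.92 ± 2.68 CPM in ECs and 2.39 CPM or less elsewhere, although the stellate cell value, from 1 UMI, overlapped it. Jag1 (ENSMUSG00000027276, chr2:137081456-137116644) was broad. ECs (51.7 ± 14.5 CPM), tumor cells (48.1 ± 26.1 CPM), M-MDSCs (47.0 ± 19.7 CPM), stellate cells (46.1 ± 34.7 CPM), monocytes (36.1 ± 13.5 CPM) and DCs (32.2 ± 15.2 CPM) could not be separated within their spread. Jag2 (ENSMUSG00000002799, chr12:112907819-112929776) was sparse everywhere, at most 2.49 ± 2.33 CPM, in DCs.

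Of the target genes, Hes1 (ENSMUSG00000022528, chr16:30064384-30067796), a transcriptional repressor and a classical Notch target, was detected in every type and was highest in ECs at 207 ± 66.0 CPM. Stellate cells (128 ± 98.7 CPM) overlapped ECs, and tumor cells followed at 61.2 ± 26.8 CPM. Hey1 (ENSMUSG00000040289, chr3:8663359-8667256), a target associated with arterial endothelium, had 122 UMIs in all ECs, a mean of 1.70 ± 1.16 CPM. Its stellate cell value was higher, 6.81 ± 11.2 CPM, but came from 10 UMIs.

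Counted by cell, the same pattern held at equal depth. After each cell was thinned to 1000 UMIs, 23.0% of ECs had a Notch1 UMI, against 0.171% of tumor cells. Dll4 was seen in 7.72% of ECs, 0.0682% of tumor cells and 0.146% of monocytes. Notch2 was seen in 19.9% of inflammatory myeloid cells, 18.1% of monocytes and 1.39% of ECs. Before thinning, 64.9% of ECs and 4.83% of tumor cells had a Notch1 UMI, although tumor cells were the deeper type. Free RNA was not measured, so its part in the tumor cell shares was not tested.

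**Figure D1:**
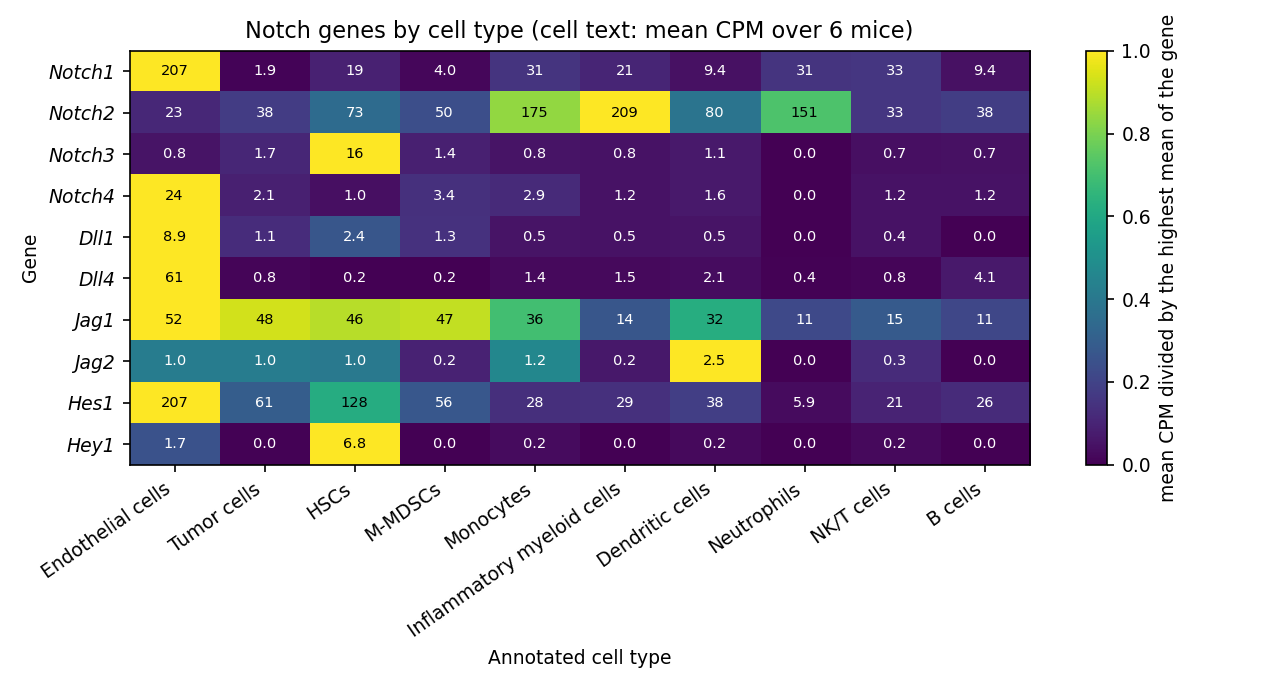
Mean CPM of each Notch gene (rows) in each annotated cell type (columns) over 6 mice, printed in each cell; colors are the mean divided by the highest mean of that gene. Notch1, Notch4 and Dll4 peak in ECs and Notch2 in inflammatory myeloid cells, at 209 CPM.

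Within the endothelium the genes fell into different patterns over clusters. Notch1 was even in clusters 2, 8 and 18, with means of 293, 288 and 289 CPM, and was 189 CPM in cluster 24, 126 CPM in cluster 15 and 48.0 CPM in cluster 16. As a mean over cells, which gives deep cells no extra weight, Notch1 was 189 CPM in cluster 15 and 140 CPM in cluster 16, so the gap to the other clusters was smaller on that scale. Dll4 did not follow it into cluster 18. Dll4 averaged 108 ± 43.2 CPM in cluster 2, 79.2 ± 32.8 CPM in cluster 8 and 60.4 ± 29.5 CPM in cluster 24, but 13.9 ± 7.54 CPM in cluster 18, where Notch1 was as high as in cluster 2. Cluster 18 also had the highest sum of venous markers, 5263 CPM against 1625 CPM in cluster 2, and the lowest sum of tip-like markers, 11.2 CPM against 102 CPM. Dll1 was highest in that cluster, at 20.9 ± 6.50 CPM, compared with 10.4 ± 3.01 CPM in cluster 2. Hes1 was 331 ± 93.4 CPM in cluster 8, 257 ± 105 CPM in cluster 2 and 172 ± 86.7 CPM in cluster 18. Notch2 was 106 ± 16.3 CPM in cluster 24 and 8.93 ± 1.11 CPM in cluster 2, and cluster 24 also had the highest sums of monocyte markers (1931 CPM against 553 CPM in cluster 2) and of inflammatory myeloid markers (8775 CPM against 106 CPM). The part of those myeloid markers in the Notch2 value was not tested. Clusters were formed from all genes, these 10 included, so differences between them are given as a description.

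**Figure D2:**
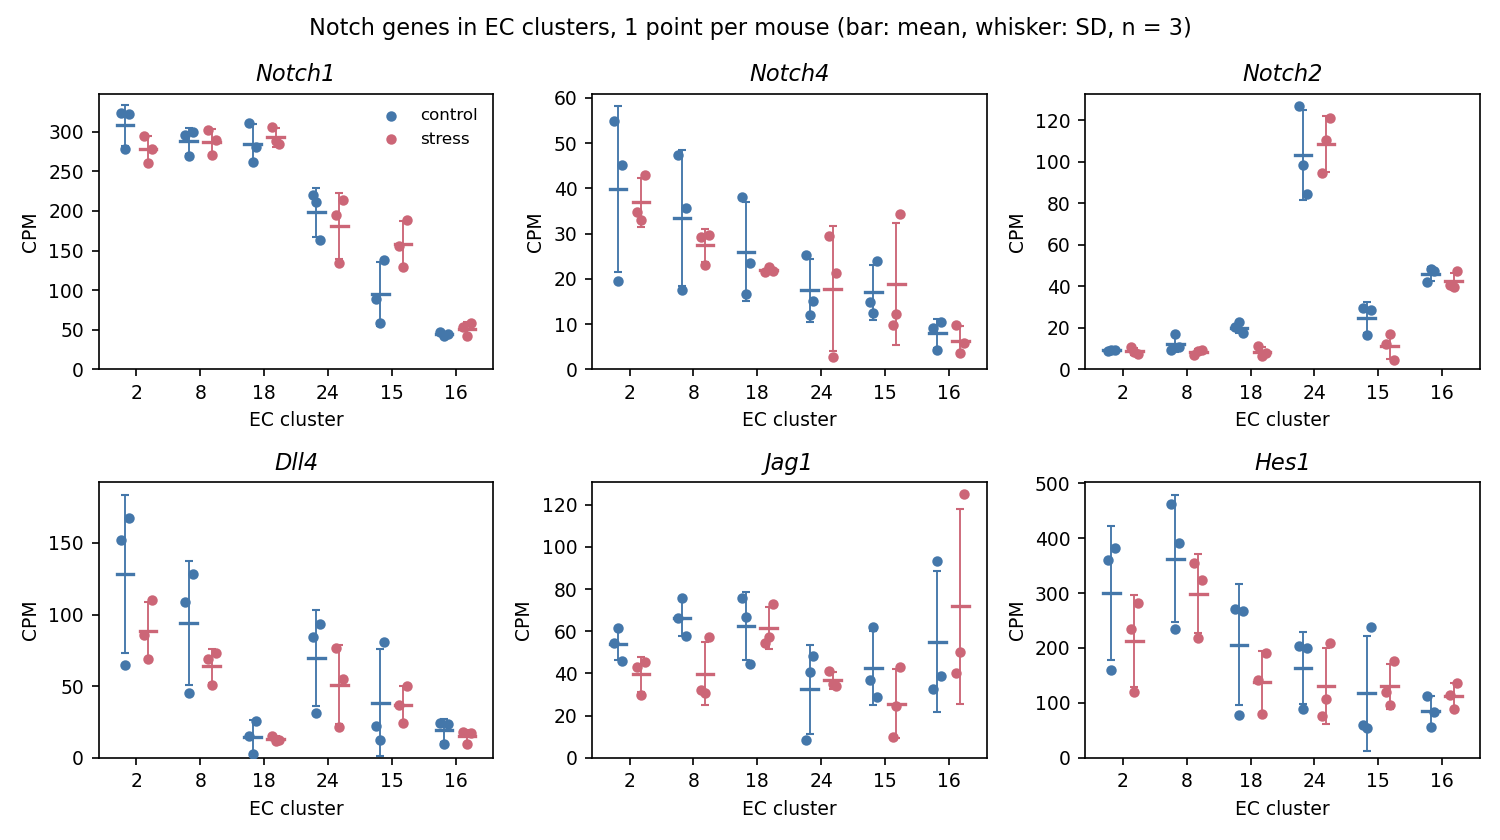
CPM (vertical axis) of 6 Notch genes in the 6 EC clusters tested (horizontal axis), with 1 point per mouse, bars for means and whiskers for SD (n = 3 per group). Notch1 is even over clusters 2, 8 and 18, whereas Dll4 is low in cluster 18 at 13.9 CPM.

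In ECs no Notch gene passed the threshold between stress and control mice. Of the 9 genes tested by edgeR's quasi-likelihood test, 0 had an adjusted p under 0.05, 2 had an unadjusted p under 0.05 (Notch2 and Hey1) against 15.6% of all genes, and DESeq2 called 0. Among all 14090 genes tested in ECs, 30 passed, or 0.213%. Notch3 did not pass the filter on low counts. The median log2 fold change of the 9 genes was -0.25, compared with -0.01 over all genes.

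Notch1, the receptor through which Dll4 acts in vessels, was even between mice. It was 201, 195 and 210 CPM in the control mice and 209, 188 and 237 CPM in the stress mice. The groups overlapped, the log2 fold change was 0.04 (SE 0.12), and 2 SE to either side gave an interval of -0.20 to 0.28.

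Dll4 varied much more from mouse to mouse than between groups. It was 78.2, 36.3 and 93.5 CPM in control mice and 49.3, 39.9 and 69.4 CPM in stress mice. Control mouse 2 was the lowest of all, so the groups overlapped, and the log2 fold change was -0.42 (SE 0.36, edgeR adjusted p = 0.605). The Hes1 values, 271, 135 and 265 CPM in control mice and 197, 123 and 252 CPM in stress mice, had the same mice at the low end. Notch4, at 32.6, 13.6 and 27.9 CPM and 22.6, 19.5 and 29.4 CPM, was again lowest in control mouse 2 and next lowest in stress mouse 2. Control mouse 2 was the lowest control mouse for all 3 genes in clusters 2, 8 and 18 as well. Jag1 did not share this order, since control mouse 2 had its highest EC value. Jag1 was 49.1, 73.7 and 46.1 CPM in control mice and 40.1, 36.6 and 64.5 CPM under stress (log2 fold change -0.28, SE 0.26, edgeR adjusted p = 0.635). Single mice moved these fold changes by over 1.5 times. Dll4 ran from -0.12 without control mouse 3 to -0.72 without control mouse 2, Hes1 from -0.0034 without stress mouse 2 to -0.51 without stress mouse 3, and Jag1 from -0.033 without control mouse 2 to -0.58 without stress mouse 3. None was called in any of these fits. Leaving out cluster 16, which carried tumor markers, moved Hes1 from -0.25 to -0.49, Notch4 from -0.07 to -0.22 and Dll1 from -0.15 to -0.34, again with no call. In cluster 16 itself Hes1 had a log2 fold change of 0.38 (SE 0.24), although its mean over cells was 170 CPM in the controls and 122 CPM under stress.

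Notch2 and Hey1 were lower in ECs of all 3 stress mice than in any control mouse. Notch2 was 24.6, 27.8 and 25.8 CPM in control mice and 21.5, 21.1 and 19.0 CPM in stress mice, so that the log2 fold change was -0.37 (SE 0.11, edgeR adjusted p = 0.214). Hey1 was 2.73, 1.70 and 3.35 CPM in control mice and 0.478, 0.526 and 1.43 CPM in stress mice, so that the log2 fold change was -1.62 (SE 0.50, edgeR adjusted p = 0.214). Neither passed the threshold, and the groups of mice did not overlap in either direction for 22.8% of all genes tested in ECs, so 2 of 9 was close to the background. After thinning to 1000 UMIs per cell both overlapped. The share of ECs with a Notch2 UMI was then 1.37%, 1.74% and 1.84% for the controls, against 1.505%, 0.852% and 1.12% under stress, and with a Hey1 UMI 0.369%, 0.149% and 0.272% against 0.0684%, 0.114% and 0.180%. As a mean over cells Notch2 was 11.9, 15.2 and 16.7 CPM against 11.2, 10.4 and 11.0 CPM in all ECs, without overlap. In cluster 2 these means overlapped, at 7.40, 7.85 and 9.92 CPM against 11.1, 6.02 and 7.08 CPM. The Hey1 values rested on 122 UMIs. In cluster 2, which held 73 of them, Hey1 was 4.22, 3.89 and 6.64 CPM in control mice and 0.625, 1.01 and 3.06 CPM in stress mice (edgeR adjusted p = 0.301), and the log2 fold change went from -1.52 to -2.52 without stress mouse 3.

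The makeup of the ECs differed between the groups. Cluster 15 held 1.73%, 4.94% and 5.35% of the ECs of control mice and 11.3%, 23.1% and 17.7% of those of stress mice, and cluster 8 held 28.7%, 28.4% and 30.2% against 18.3%, 18.04% and 25.3%. Because cluster 15 was shallow, it held 1.23% to 1.95% of the EC UMIs in control mice and 3.88% to 7.16% in stress mice. The part of this makeup in the values of all ECs was not tested. No member was called in all ECs, either with cluster 15 or without it. Fits of single EC clusters also called none. Over 38 tests in 6 clusters, edgeR called 0 members and DESeq2 called 0, and 5 had an unadjusted p under 0.05, against 13.2% of all genes. Over all genes, 0.196% were called in cluster 2, 0.278% in cluster 8, 0.153% in cluster 15, 0.636% in cluster 16, 1.02% in cluster 18 and 0.136% in cluster 24. Jag1 did not overlap between the groups of mice in either of the 2 largest clusters. In cluster 8 it was 66.1, 75.6 and 57.8 CPM in control mice and 32.0, 30.6 and 57.2 CPM in stress mice, with a narrow margin between 57.8 and 57.2 CPM (log2 fold change -0.70, SE 0.23, edgeR adjusted p = 0.331). In cluster 2 the log2 fold change was -0.48 (SE 0.19, edgeR adjusted p = 0.332). The size moved with single mice and with depth. In cluster 8 it was -1.07 without stress mouse 3 and -0.37 after thinning, and without the count filter it was -0.71 and was called (edgeR adjusted p = 0.0177). In cluster 2 it was -0.31 without stress mouse 2. In cluster 16 Jag1 had the opposite sign, 0.34 (SE 0.46, edgeR adjusted p = 0.785), and without that cluster the log2 fold change of Jag1 in all ECs was -0.52 (SE 0.19, edgeR adjusted p = 0.348), larger by over 1.5 times than with it. By summed counts Notch2 was lower in cluster 18, at 20.2, 22.6 and 17.6 CPM in control mice and 11.2, 6.63 and 7.69 CPM under stress (log2 fold change -1.22, SE 0.32, edgeR adjusted p = 0.107). As a mean over cells the groups overlapped, at 10.2, 17.0 and 15.1 CPM against 11.2, 3.81 and 6.52 CPM. They also overlapped after thinning, where 1.07%, 2.94% and 0.0% of the cells had a Notch2 UMI, against 2.59%, 0.0% and 2.58%. Every stressed mouse lay below every control mouse for 8.88% of all genes in cluster 2, 7.99% in cluster 8 and 11.9% in cluster 18. The stress effects on the 8 genes tested did not pass the threshold for a difference between clusters 2 and 8. In that comparison edgeR and DESeq2 called 0 members, 1 (Notch1) had an unadjusted p under 0.05, against 9.10% of all genes, and 0.454% of all genes were called.

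In tumor cells Hes1 and Jag2 were higher under stress. Of 9 members tested, 2 passed the threshold, both higher, and DESeq2 also called 2. The background was high. Among 18856 genes, 21.4% were called in tumor cells and 12.0% were called higher, so 2 of 9 is close to the share of all genes. Hey1 did not pass the filter on low counts. Fold changes here and elsewhere use TMM factors, whereas CPM values are per total UMIs, so the fold changes are not the ratios of the CPM values.

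Hes1 was 40.8, 35.5 and 44.0 CPM in the tumor cells of control mice and 71.6, 68.9 and 106 CPM in those of stress mice. The groups were far apart, with the lowest stress mouse well above the highest control mouse. The log2 fold change was 0.89 (SE 0.18, edgeR adjusted p = 0.0152), and the threshold was passed in all 12 alternative fits, with adjusted p from 0.000107 to 0.0463. After thinning to 1000 UMIs per cell, 3.88%, 3.54% and 4.03% of the tumor cells of control mice had a Hes1 UMI, against 6.61%, 6.32% and 9.37% in stress mice. The difference was spread over the tumor cell clusters. In 9 of 9 clusters tested the fold change was positive, from 0.57 to 1.62 on the log2 scale, and in 6 the threshold was passed. The clusters came from the same 6 mice, so their signs were not independent. For members not called over all tumor cells, the fold change was positive in 8 of 9 clusters for Jag1 and 7 of 8 for Notch3. It was positive in 6 of 8 for Notch1, 4 of 7 for Dll4, 3 of 9 for Notch2, 2 of 7 for Dll1 and 0 of 8 for Notch4. The shares of all genes called higher in those 9 clusters were 7.15%, 1.56%, 7.17%, 1.13%, 0.554%, 1.78%, 7.23%, 3.38% and 1.65% in clusters 1, 3, 4, 5, 6, 7, 9, 14 and 17, of which 1, 4, 7, 9, 14 and 17 passed for Hes1. Markers of other cells moved with the group too. The 7 EC markers summed to 21.5 to 27.0 CPM in tumor cells of control mice and 28.7 to 40.3 CPM in those of stress mice, compared with 5296 to 7473 CPM in ECs, and the 8 stellate cell markers summed to 1.18 to 1.92 CPM and 2.59 to 5.46 CPM. Notch1 was 1.31, 2.62 and 1.23 CPM in tumor cells of control mice and 1.32, 2.27 and 2.68 CPM in those of stress mice, and these overlapped. The part of RNA from other cells in the Hes1 and Notch1 values was not tested.

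Jag2 was 0.586, 0.790 and 0.585 CPM in tumor cells of control mice and 1.11, 1.63 and 1.55 CPM in those of stress mice. The groups did not overlap, but the whole series rested on 825 UMIs in 29638 tumor cells. The log2 fold change was 0.98 (SE 0.21, edgeR adjusted p = 0.0195). Leaving out control mouse 1 or 3 or stress mouse 2 or 3 ended the call, with adjusted p up to 0.0857, while the log2 fold change stayed between 0.91 and 1.11, and after thinning the gene did not pass the filter on low counts. Notch3, at 1.68, 1.001 and 1.39 CPM against 2.02, 2.29 and 1.80 CPM, also did not overlap but did not pass (edgeR adjusted p = 0.207). The groups did not overlap for 38.3% of all genes tested in tumor cells, next to 3 of these 9.

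The other receptors and ligands did not pass over all tumor cells. In single tumor cell clusters, Notch3 was called in 1 of 8, cluster 9, at 2.49, 1.52 and 2.53 CPM in control mice and 9.14, 5.63 and 4.47 CPM under stress (log2 fold change 1.55, SE 0.36, edgeR adjusted p = 0.0292). Jag2 was called in 2 of 7, clusters 1 and 4 (edgeR adjusted p = 0.0411 and 0.0398). The shares of all genes called higher were 7.23% in cluster 9, 7.15% in cluster 1 and 7.17% in cluster 4. These were the highest among the clusters listed for Hes1. Notch2 differed by -0.10 on the log2 scale (SE 0.08), with an interval of -0.27 to 0.06. Notch4 was 3.20, 1.55 and 2.81 CPM in control mice and 1.57, 1.69 and 2.01 CPM under stress (log2 fold change -0.68, SE 0.28, edgeR adjusted p = 0.122), and it passed when control mouse 2 was left out (edgeR adjusted p = 0.00793). Jag1 varied by mouse, at 23.7, 65.8 and 28.5 CPM in control mice and 31.2, 48.3 and 90.8 CPM in stress mice. By these sums, control mouse 2 and stress mouse 3 were the highest of their groups in tumor cells, M-MDSCs, DCs and EC cluster 16 alike. In DCs control mouse 1 was higher than control mouse 2 as a mean over cells (47.2 and 22.1 CPM) and by thinned share (4.26% and 3.85%), and in M-MDSCs control mouse 3 had the highest thinned share (8.43%).

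**Figure D3:**
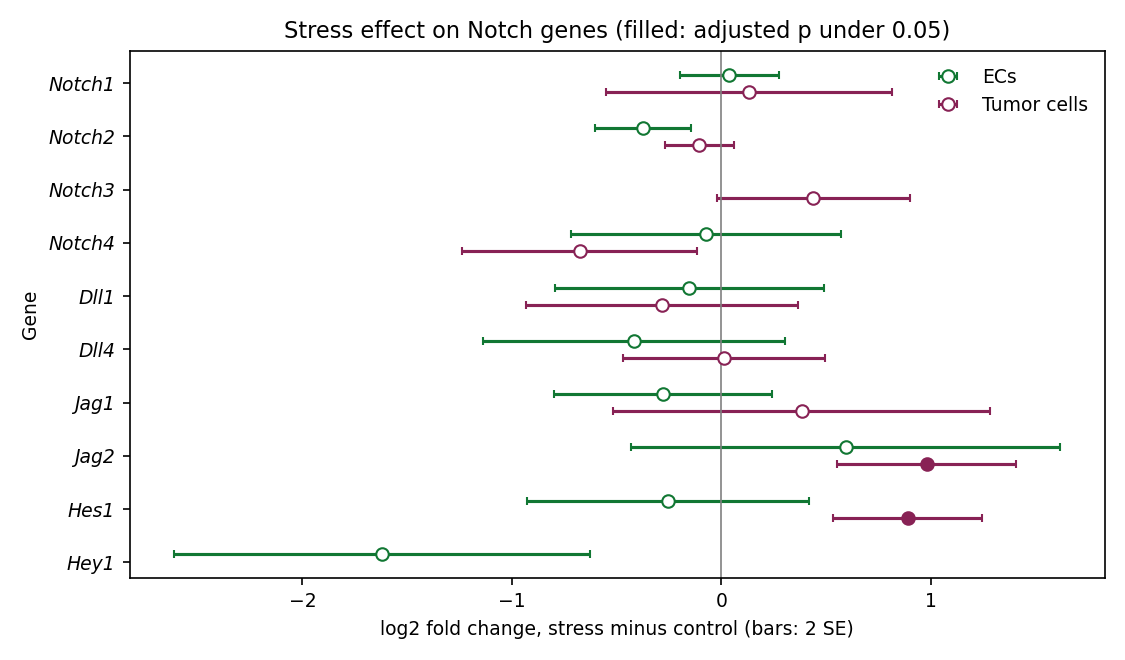
Log2 fold change of stress minus control (horizontal axis) of each Notch gene (vertical axis) in ECs and tumor cells, with bars of 2 SE from edgeR on 3 mice per group; filled points passed an adjusted p of 0.05. Hes1 and Jag2 in tumor cells are filled, at 0.89 and 0.98.

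The difference between the stress effects on Hes1 in ECs and in tumor cells was itself fitted, with the mouse as a block. It was -1.21 on the log2 scale (SE 0.20, edgeR unadjusted p = 0.000118, adjusted p = 0.0614) and did not pass. The adjusted p ranged from 0.000872 to 0.470 over 11 alternatives, and it passed in 3 of them, among them the fit without control mouse 2 (adjusted p = 0.00644). Of the 10 members, edgeR called 0, DESeq2 called 1 (Hes1), and 4 had an unadjusted p under 0.05, against 12.2% of all genes, of which 0.13% were called. For ECs against monocytes, edgeR called 0 members and 0.0% of all genes, DESeq2 called 0 members, and 4 members had an unadjusted p under 0.05, against 8.31% of all genes.

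In the 6 other cell types tested, 0 members were called by edgeR or DESeq2 in 22 tests. The 3 with an unadjusted p under 0.05 were all Hes1, in DCs, inflammatory myeloid cells and M-MDSCs, where 16.98%, 3.96% and 9.56% of all genes had one. The shares of all genes called were 0.483% in B cells, 2.64% in DCs, 0.0% in inflammatory myeloid cells, 0.561% in M-MDSCs, 0.122% in monocytes and 0.857% in NK/T cells. In M-MDSCs Hes1 was 36.1, 32.1 and 46.2 CPM in control mice and 57.7, 59.1 and 107 CPM in stress mice. These groups did not overlap (log2 fold change 0.97, SE 0.28, edgeR adjusted p = 0.233), in cells that carried tumor markers at the level given above. Hes1 was called there with the replicate block (edgeR adjusted p = 0.0324) and without the count filter (adjusted p = 0.00338), in 2 of 11 alternatives. In inflammatory myeloid cells Hes1 was 26.8, 19.4 and 15.96 CPM and 32.5, 29.6 and 48.0 CPM, again without overlap (log2 fold change 1.10, SE 0.43, edgeR adjusted p = 0.994). On the other scales the groups of inflammatory myeloid cells overlapped. After thinning, 0.548%, 0.808% and 0.478% of these cells had a Hes1 UMI in the controls, against 1.01%, 0.733% and 1.78% under stress, and the means over cells were 5.84, 16.8 and 8.23 CPM against 8.37, 21.1 and 50.04 CPM. For comparison, 7.64% of all genes tested in M-MDSCs and 3.0% in inflammatory myeloid cells were higher in every stressed mouse than in every control. The fold change of Hes1 was also positive, with overlapping groups, in DCs (0.65, SE 0.27), monocytes (0.60, SE 0.30) and B cells (0.86, SE 0.44), and it was -0.20 (SE 0.37) in NK/T cells. Single mice moved several of these values by over 1.5 times. Without stress mouse 3, Hes1 was 0.55 in inflammatory myeloid cells and 0.56 in M-MDSCs. Without control mouse 2 it was 0.33 in DCs and 0.37 in monocytes, and in monocytes it was also 0.37 without stress mouse 1 and 0.35 after thinning. Monocyte clusters differed in direction. The fold change of Hes1 was 0.80 (SE 0.55) in cluster 11, -0.45 (SE 0.28) in cluster 12 and 1.30 (SE 0.26) in cluster 13, and none was called. The direction in DCs turned with the weighting, since the mean over cells was 31.3 CPM in the controls and 26.7 CPM under stress.

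Notch2 in the myeloid cells, where it was highest, did not pass. In inflammatory myeloid cells it was 112, 207 and 148 CPM in control mice and 196, 259 and 333 CPM under stress (log2 fold change 0.94, SE 0.50, edgeR adjusted p = 0.994). In monocytes it was 137, 137 and 197 CPM and 169, 210 and 202 CPM (log2 fold change 0.35, SE 0.21, edgeR adjusted p = 0.529). Both sets of sums overlapped. In inflammatory myeloid cells the fold change was 0.61 without control mouse 1 and 0.44 without stress mouse 3, and in monocytes it was 0.23 without control mouse 1, 0.59 without control mouse 3 and 0.20 after thinning. At equal depth the groups of inflammatory myeloid cells did not overlap. After thinning, 18.1%, 18.3% and 13.3% of these cells had a Notch2 UMI in the controls, against 21.5%, 26.9% and 24.8% under stress. As a mean over cells Notch2 there was 197, 246 and 154 CPM and 259, 316 and 343 CPM, again without overlap. The share of all genes without overlap was not taken on these scales, so this has no background to be set against.

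**Figure D4:**
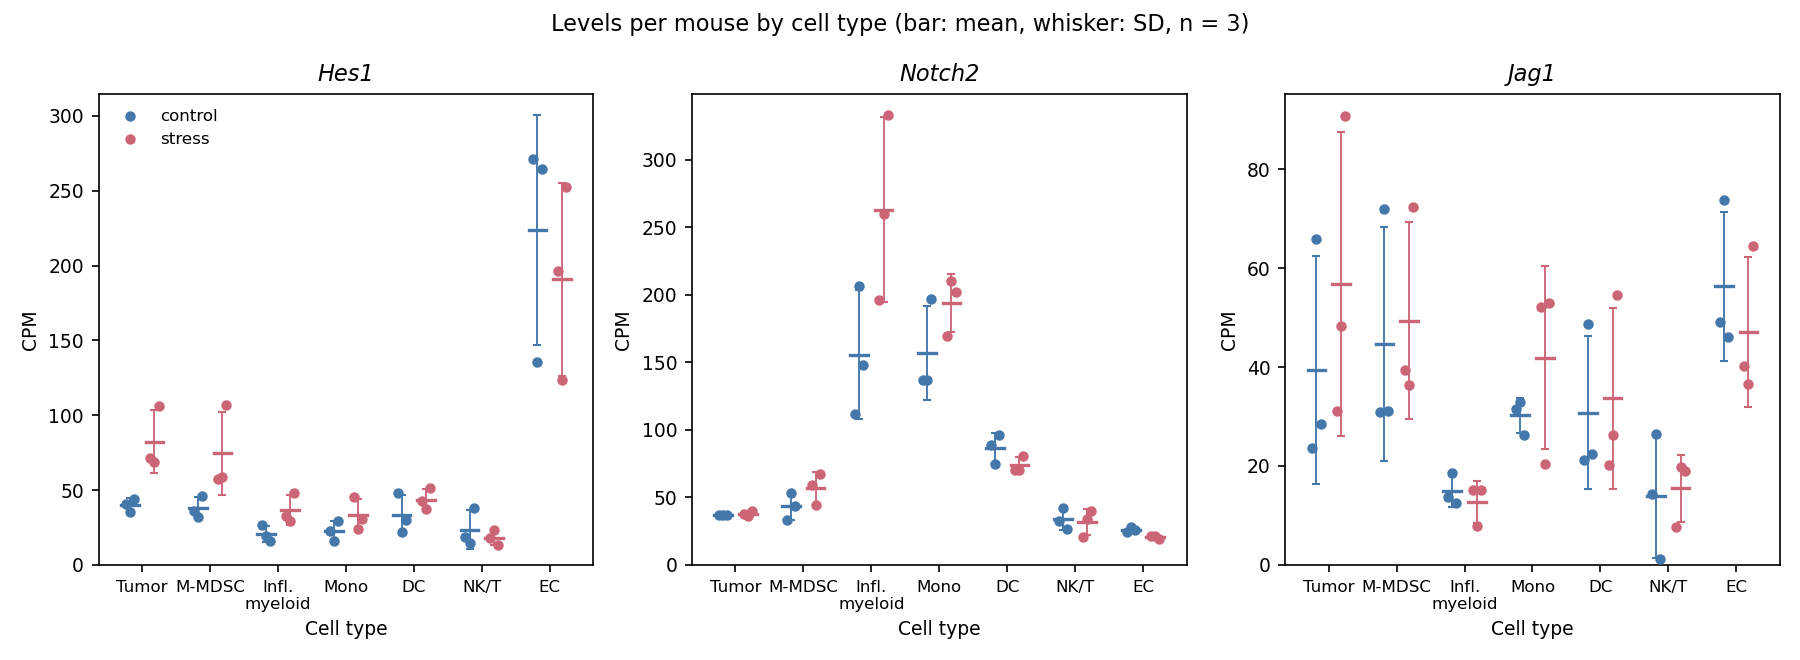
CPM (vertical axis) of Hes1, Notch2 and Jag1 in 7 cell types (horizontal axis), with 1 point per mouse, bars for means and whiskers for SD (n = 3 per group). Hes1 in tumor cells of stress mice lies at 68.9 CPM or more, above the control mice.

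To set ligand and receptor side by side, the geometric mean of a ligand in 1 cell type and a receptor in another was taken in each mouse for 4 pairs. The geometric mean of Dll4 in ECs and Notch2 in monocytes was 104, 70.4 and 136 CPM in control mice and 91.4, 91.5 and 118 CPM in stress mice. The stress values lay within the range of the control values, and the difference of means was -2.75 CPM (exact two-sided permutation p = 1.0; the smallest p that 3 against 3 mice allow is 0.10). For Dll4 and Notch1, both in ECs, the means were 117 ± 29.2 CPM in control and 105 ± 21.1 CPM in stress mice (SD, n = 3, exact permutation p = 0.80). For Jag1 and Notch1 in ECs they were 106 ± 12.0 CPM and 99.4 ± 21.5 CPM (SD, n = 3, exact permutation p = 0.60). For Jag1 in ECs and Notch2 in tumor cells they were 45.4 ± 5.82 CPM and 42.1 ± 7.70 CPM (SD, n = 3, exact permutation p = 0.50). All 4 adjusted p-values were 1.0, and every pair overlapped. Without EC cluster 16 the differences were larger by over 1.5 times, at -9.72 CPM for Dll4 and Notch2 (exact permutation p = 0.80), -32.1 CPM for Dll4 and Notch1 (p = 0.30), -24.2 CPM for Jag1 and Notch1 (p = 0.10, the smallest possible) and -7.01 CPM for Jag1 and Notch2 (p = 0.20).

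The wider pathway was described through 59 further genes in lists of other ligands, ligand endocytosis, receptor glycosylation, receptor cleavage, receptor turnover, the nuclear complex and other targets. In ECs 47 were tested, and edgeR called 0, with 6 (12.8%) at an unadjusted p under 0.05 against 15.6% of all genes, while DESeq2 called 1 (Numb). The median log2 fold change was -0.02, against -0.01 over all genes. All 6 other target genes tested in ECs had a negative fold change, with a median of -0.35, and 0 passed. The 3 ligand endocytosis genes tested there were all positive, with a median of 0.12. Over all genes tested in ECs, 6876 of 14090 were positive. In tumor cells 52 were tested, of which 2 were called higher and 8 lower, next to 12.0% and 9.46% of all genes. In both directions edgeR called 10, against 21.4% of all genes, and DESeq2 called 9. An unadjusted p under 0.05 was found for 15 (28.8%), against 37.4% of all genes. Receptor cleavage was the list with the most calls. Of its 10 genes 5 were lower, with a median log2 fold change of -0.23 against -0.01 over all genes.

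Among them were Ncstn and Aph1a, subunits of γ-secretase, Adam10, which makes the preceding cut, and Furin, which processes the receptor before it reaches the surface. Ncstn was 51.7, 40.7 and 44.4 CPM in control mice and 35.5, 30.4 and 38.8 CPM in stress mice, without overlap (log2 fold change -0.53, SE 0.14, edgeR adjusted p = 0.0349). Aph1a was 56.0, 55.8 and 52.8 CPM and 45.1, 49.4 and 45.6 CPM, also without overlap (log2 fold change -0.38, SE 0.07, edgeR adjusted p = 0.0142). Adam10 had 1 stress mouse at the control level, with 64.1, 65.0 and 63.3 CPM against 53.3, 55.8 and 64.5 CPM (log2 fold change -0.29, SE 0.09, edgeR adjusted p = 0.0476). The counts of calls moved with the scaling, with thinning and with single mice. With scaling by total UMIs in place of TMM factors, the median of all tumor cell genes moved from -0.01 to 0.13, the share of calls that were higher went from 55.9% to 81.7%, and 0 of the 10 cleavage genes were called. The fold changes stayed negative but were smaller, at -0.39 for Ncstn, -0.23 for Aph1a, -0.22 for Furin and -0.15 for Adam10. The list median moved along with that of all genes, to -0.09, and stayed below it. Without control mouse 1, or without control mouse 3, 0 were called as well, and without stress mouse 1 or 2 only Aph1a was. In these 4 fits the share of all genes called lower also went down, to 3.13%, 2.35%, 4.66% and 4.13%, while the list median stayed between -0.21 and -0.25. The count was 5 without control mouse 2, with the replicate block and with DESeq2, where 14.6%, 13.1% and 9.59% of all genes were called lower. It was 4 without stress mouse 3, where 4.25% of all genes were. After thinning to 1000 UMIs per cell, 0 of the 8 cleavage genes tested were called, with a list median of -0.14 (Aph1a at -0.15 and Adam10 at -0.17), and 406 of all genes were called in place of 4041. With scaling by total UMIs, Hes1 and Jag2 remained higher, at 1.04 and 1.13 on the log2 scale, and were called.

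Other calls in tumor cells were Mfng and Maml3, which were lower, and Cntn1 and Ptcra, which were higher. These calls were also lost in some alternatives: Mfng was called in 5 of 11, Cntn1 in 4 of 11, Maml3 in 7 of 12 and Ptcra in 8 of 12. The log2 fold changes kept their sign, from -0.90 to -0.67 for Mfng, 0.96 to 1.33 for Cntn1, -0.59 to -0.35 for Maml3 and 0.40 to 0.80 for Ptcra, the last after thinning. Mfng, a glycosyltransferase that modifies Notch receptors, fell by 0.81 on the log2 scale (SE 0.19, edgeR adjusted p = 0.0249), at a mean of 1.32 CPM in control and 0.828 CPM in stress mice. Maml3, a coactivator of the RBPJ complex, fell by 0.50 on the log2 scale. Neither was called with scaling by total UMIs. Ptcra, a target known from thymocytes, rose by 0.49 on the log2 scale with TMM factors (edgeR adjusted p = 0.0352) and by 0.63 with scaling by total UMIs. Its CPM values, which are per total UMIs, were 9.99 ± 1.45 in control and 15.5 ± 1.36 in stress mice (SD, n = 3). Cntn1, a contactin described as a Notch ligand, had a mean of 0.115 CPM in control and 0.281 CPM in stress mice, a very low level. In DCs 45 of the further genes were tested, and the target Il2ra was the single call, next to 2.64% of all genes. DESeq2 called 0 of them, and 4 (8.89%) had an unadjusted p under 0.05, against 16.98% of all genes. Il2ra was 0.0, 4.86 and 5.24 CPM in control mice and 8.40, 18.01 and 17.8 CPM under stress (log2 fold change 1.996, SE 0.45, edgeR adjusted p = 0.0379). It was called in 4 of 11 alternatives, with a log2 fold change of 1.77 to 2.21 in all of them. Over 190 tests in the 5 remaining cell types edgeR called 0, with 11 (5.79%) at an unadjusted p under 0.05 against 10.1% of all genes, and DESeq2 called 1 (Maml3 in B cells). Over 224 tests in the 6 EC clusters edgeR called 0, with 30 (13.4%) at an unadjusted p under 0.05 against 13.2% of all genes, and DESeq2 called 1 (Mib1 in cluster 15).

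The genes closest in pattern to each member were sought by Pearson's r of log2(CPM + 1). Over 48 sums (8 cell types in 6 mice) the genes nearest to Notch1 were Mgat5 (r = 0.940), Jak1 and Calcrl, and those nearest to Dll4 were Fzd8 (r = 0.924), Hoxb3os and Shroom2. Notch4 was nearest to Meis2 (r = 0.889), and Hes1 to Fermt2 (r = 0.876), Egfl7 and Hspg2, a protein secreted by vessels and the basement membrane component perlecan. Notch2 was nearest to Fth1 (r = 0.936), the heavy chain of ferritin. Over 36 sums of EC clusters, Notch1 was nearest to the endothelial ETS factor Fli1 (r = 0.969), the VEGF receptor Flt1 (r = 0.969) and Fmnl3. Dll4 was nearest to Abcc9 (r = 0.956), the arterial ephrin Efnb2 (r = 0.882) and Cd36. Hes1 was nearest to Sgk1 (r = 0.871), Notch2 to the transcription factor Runx1 (r = 0.937), and Notch4 to Nostrin (r = 0.889), a regulator of endothelial nitric oxide synthase. For Jag1, Jag2 and Hey1 no gene exceeded 0.686 over EC clusters, and for the sparse Jag2 and Notch3 none exceeded 0.691 over cell types. The sums share libraries and depth, and the values are descriptions over sums that are not independent.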

How the data were processed

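Single-cell RNA was sequenced from 6 liver tumors (10x Genomics Chromium, Illumina NovaSeq). The authors deposited 1 Cell Ranger matrix of unnormalized UMI counts for each mouse (mm10 per the labels), and a table of cells with cluster and cell type. Doublets were removed by the authors with Scrublet and were not called again. The gene annotation used for counting was not given in the sources used here. Of 61374 barcodes, the 58794 annotated cells were kept. UMI totals equaled those of the cell table for 73.5% of cells, with a largest difference of 87 UMIs. Cells held 149558935 to 187728350 UMIs per mouse.

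The counts of each mouse were summed over a cell type or EC cluster, where every mouse had at least 10 cells. Stress and control mice (3 each) were compared with edgeR 4.0.16 (R 4.3.3; filterByExpr, TMM, quasi-likelihood test, Benjamini-Hochberg over all genes, threshold 0.05). Differences between stress effects were interaction terms with the mouse as a block. Ligand and receptor products were compared by an exact two-sided permutation test. For shares, cells were thinned to 1000 UMIs and shallower cells left out. DESeq2 1.42.0, other scaling, filters and sets of mice or cells were alternatives, of which 13 were added after seeing the data. The scripts were tested on simulated data. Gene positions came from GENCODE M21, which held 32061 of 34099 identifiers. Promoters came from RefSeq (GRCm38.p6), whose table held 8 of the 10 genes.

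The members and lists were chosen with earlier results of these data known. Genes named are the 10 members, listed pathway genes past the threshold (some are not reported here), markers, and for each member the 3 genes most like it in pattern. P-values cover the spread between mice, and intervals of 2 SE come from the same fits.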

Additional observations from a re-analysis of the deposited data

How the results depend on the processing

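No member was called in ECs under any alternative run. In tumor cells the count of 2 became 1 after thinning to 1000 UMIs per cell and ranged from 1 to 3 when single mice were left out. In the 6 other cell types it went from 0 to 1 (Hes1 in M-MDSCs) without the count filter and with the replicate block (1). In single EC clusters it went from 0 to 1 (Jag1 in cluster 8, adjusted p = 0.0177) without the filter. For ECs against tumor cells it went from 0 to 1 (Hes1) without the filter and with DESeq2 (1), and ranged from 0 to 1 without single mice, the call coming without control mouse 2.

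Several log2 fold changes that were not called changed sign. Notch1 in ECs became -0.068 after thinning, -0.12 without cluster 16 and -0.10 without clusters 15 and 16, and ran from -0.054 to 0.13 without single mice. Dll1 in ECs became 0.0014 after thinning and ran from -0.43 to 0.13 without single mice. Without single mice, Notch4 in ECs ran from -0.36 to 0.17, Jag1 in tumor cells from -0.11 to 0.93 and Hes1 in NK/T cells from -0.65 to 0.35. The differences of ligand and receptor products ran from -19.1 to 13.5 CPM for Dll4 and Notch2, from -27.4 to 0.699 CPM for Dll4 and Notch1, from -18.6 to 1.71 CPM for Jag1 and Notch1 in ECs, and from -7.74 to 0.00339 CPM for Jag1 and Notch2 in tumor cells. As a mean over cells in place of a sum, EC levels were 268 CPM for Notch1, 12.7 CPM for Notch2 and 31.6 CPM for Notch4. The difference of means over cells had the opposite sign to the fold change in 14 of 78 member tests, 0 of them called. The cause of these changes was not tested.

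Replicate numbers were not taken to pair the mice. Deviations of same-numbered mice correlated at 0.57, 0.43 and 0.02 in ECs and at 0.50, 0.39 and -0.13 in tumor cells. In monocytes they correlated at 0.48, 0.42 and 0.15, where all 3 were over 0.1. Differently numbered mice correlated at -0.57 to 0.23 in ECs, -0.56 to 0.33 in tumor cells and -0.49 to 0.19 in monocytes. Whether same-numbered mice belonged together was not tested. With the replicate block, calls over all genes went from 30 to 131 in ECs and from 4041 to 5088 in tumor cells. DESeq2 called 375 genes in ECs. Without the mouse as a block, the calls of the interaction fits went from 25 to 12 for ECs against tumor cells and from 52 to 0 for cluster 2 against cluster 8. The 3 mice per group and few UMIs of Hey1, Jag2 and Notch3 limit what could be detected.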
